A study of Rattus norvegicus with 12 samples.

Results

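Metallothioneins were described in rat kidneys on 12 two-channel arrays, 3 in each of 4 groups. The genes are Mt1 and Mt3, 2 of 9653 named genes on the array, taken as all probes whose annotated symbol is on the given list of members. Each gene is measured by 1 probe. All animals were inbred male Lewis rats, so every graft was an isograft, in which donor and recipient belong to 1 inbred strain. The groups were grafts taken 1 h after transplantation from brain dead donors (replicates labelled 21, 23 and 27), kidneys of brain dead donors before transplantation, called 0 h (replicates 1, 2 and 3), grafts taken at 1 h from living donors, called normal donors in the sample titles (replicates 22, 24 and 25), and normal kidneys, also 0 h (replicates 1, 2 and 3). Brain death was brought about by raising the intracranial pressure step by step, and both brain dead groups came from donors ventilated for 6 h. Both graft groups shared an operative ischemia of 30 min and the removal of the recipient's right kidney. The labels name neither ventilation alone nor a sham operation, so ventilation and brain death, and surgery and reperfusion, cannot be told apart. Every array carried the same reference, a mixture of RNA from 3 normal kidneys, and a value is the log2 ratio of the kidney over that reference, so that 0 means the level of the mixture and each unit is a factor of 2.

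Metallothioneins are small, cysteine-rich proteins of the cytosol that bind zinc and copper, take up toxic metals such as cadmium, and react with oxidants. In the kidney they are best known for holding cadmium in the cells of the proximal tubule. The genes of the ubiquitous forms are switched on by zinc through the metal-responsive transcription factor MTF-1. This factor binds short metal response elements near the start of the gene. The same forms are also induced by glucocorticoids, cytokines and oxidative stress. Mt1 and Mt2A encode the ubiquitous forms, Mt3 a form first described in brain, where it limits the growth of neurons, and Mt4 a form of stratified epithelia.

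The promoters are shown for their matches to metal response elements, and their part in the differences between groups was not tested. Each runs from 250 bases before to 50 bases after the annotated start, is taken from RefSeq on rat build GRCr8, and is written 5′ to 3′ on the strand of the gene. Capitals mark the 7-base core of a metal response element, TGCACNC or TGCGCNC, searched on both strands. The Mt1 promoter lies at chr19:10832926-10833225 (minus strand), that of Mt3 at chr19:10856031-10856330 (minus strand) and that of Mt2A at chr19:10838659-10838958 (minus strand).
Mt1: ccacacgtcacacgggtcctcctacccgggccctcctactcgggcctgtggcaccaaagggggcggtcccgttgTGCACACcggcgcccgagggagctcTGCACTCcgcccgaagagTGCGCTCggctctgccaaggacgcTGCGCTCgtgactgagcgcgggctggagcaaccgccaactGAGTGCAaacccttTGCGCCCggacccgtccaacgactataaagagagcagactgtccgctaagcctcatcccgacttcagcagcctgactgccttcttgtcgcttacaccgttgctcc
Mt3: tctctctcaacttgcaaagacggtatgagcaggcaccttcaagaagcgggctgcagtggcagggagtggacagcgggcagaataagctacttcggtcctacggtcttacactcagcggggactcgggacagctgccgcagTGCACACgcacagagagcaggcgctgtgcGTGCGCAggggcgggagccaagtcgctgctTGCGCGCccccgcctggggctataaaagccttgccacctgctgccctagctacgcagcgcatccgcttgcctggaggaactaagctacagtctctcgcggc
Mt2A: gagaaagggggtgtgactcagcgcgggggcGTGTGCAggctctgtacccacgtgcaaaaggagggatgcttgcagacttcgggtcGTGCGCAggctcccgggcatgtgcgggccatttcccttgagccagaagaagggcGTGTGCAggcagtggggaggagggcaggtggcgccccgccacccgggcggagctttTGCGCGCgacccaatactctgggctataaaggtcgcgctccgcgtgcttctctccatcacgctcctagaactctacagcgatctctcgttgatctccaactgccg

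The Mt1 promoter held 6 separate cores, that of Mt3 held 3 and that of Mt2A held 4, and none of these overlapped another. The promoter of Mt4, which has no named probe here, held 1. Of 33469 rat promoters of the same length, 24.2% held at least 1 core, 1.13% held 3 or more, 0.257% held 4 or more and 10 (0.0299%) held 6 or more. In all 3 measured genes the core nearest to the start lay within a few bases of the same place: it began at position -55 in Mt1 and in Mt2A and at -51 in Mt3, with the start base counted as 0. Each of the 4 promoters also held 1 TATA box (TATAAA, searched on both strands), which 14.2% of all promoters had. The core of the antioxidant response element (TGACNNNGC, both strands) was found once in Mt1 and once in Mt2A, against 12.1% of all promoters with at least 1. The glucocorticoid response element (AGAACA and TGTTCT with 3 bases between them, both strands) was in none of the 4 windows and in 0.0149% of all promoters. A match is a run of letters in this window and says nothing on its own about binding.

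**Figure D1:**
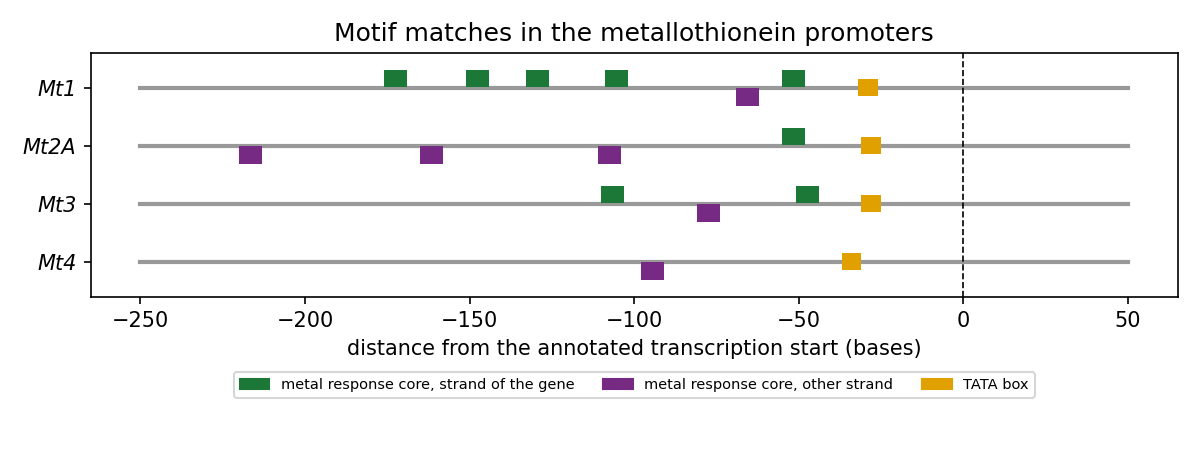
Motif matches in the promoters of Mt1, Mt2A, Mt3 and Mt4, by distance in bases from the annotated start of transcription. Boxes above the line are metal response element cores on the strand of the gene, boxes below the line are cores on the other strand, and boxes on the line are TATA boxes. Mt1 holds 6 cores, Mt2A 4, Mt3 3 and Mt4 1.

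Mt1 separated all 4 groups. It stood at 0.87, 0.84 and 0.65 in grafts of brain dead donors (replicates 21, 23 and 27), at 0.45, 0.47 and 0.52 in brain dead donor kidneys (1, 2 and 3), at -0.28, -0.11 and -0.41 in grafts of living donors (22, 24 and 25) and at -0.80, -0.50 and -0.46 in normal kidneys (1, 2 and 3). No replicate of any group fell into the range of another, and the lowest value after brain death lay above the highest value without it. Group means were 0.79 ± 0.12, 0.48 ± 0.04, -0.27 ± 0.15 and -0.59 ± 0.18 in that order (SD, n = 3 arrays each). Over all 18478 features, 14 (0.0758%) showed the same full separation in the same order.

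Mt3 followed the same order. It stood at 1.15, 1.01 and 1.28 in grafts of brain dead donors, at 0.89, 0.85 and 1.02 in brain dead donor kidneys, at 0.21, 0.35 and 0.27 in grafts of living donors and at -0.045, -0.004 and -0.05 in normal kidneys. The ranges of both brain dead groups touched, since replicate 3 of the donor kidneys (1.017) lay just above replicate 23 of the grafts (1.013), and every other pair of groups was apart. Group means were 1.15 ± 0.14, 0.92 ± 0.09, 0.28 ± 0.07 and -0.03 ± 0.03 (SD, n = 3 each). Means fell in this order in 9.59% of all features.

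**Figure D2:**
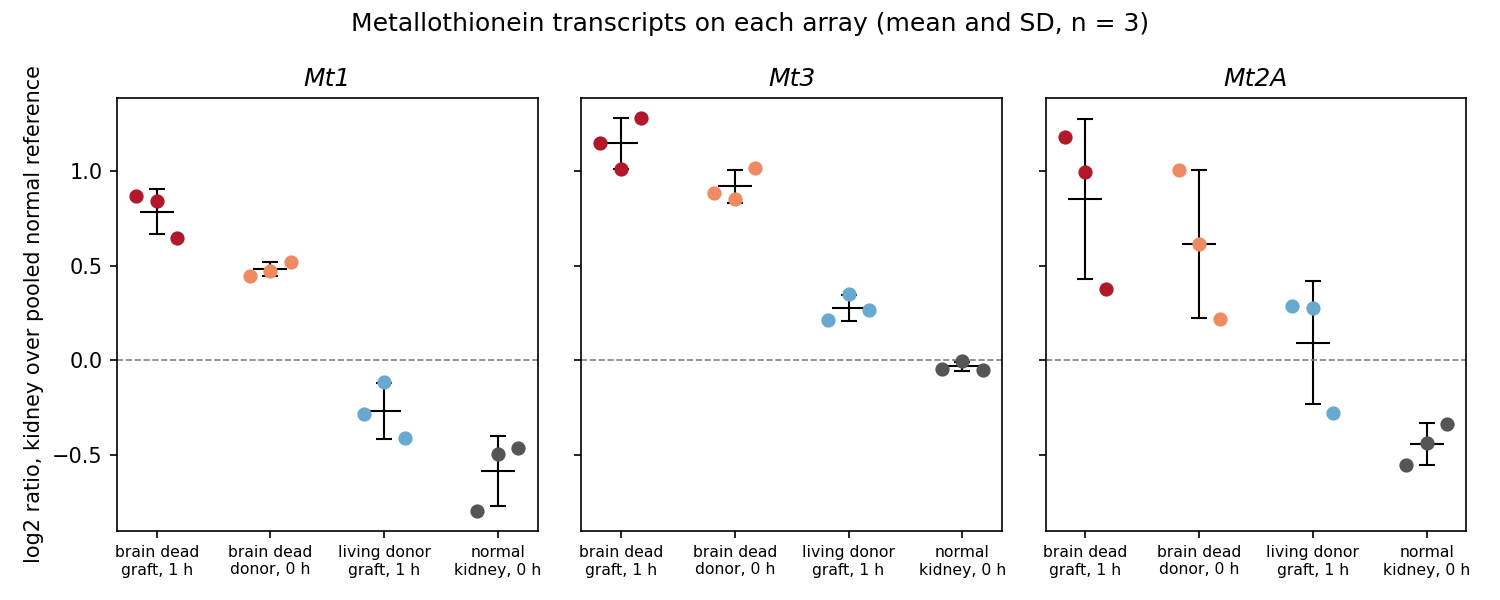
Log2 ratio of each kidney over the pooled normal reference for Mt1, Mt3 and Mt2A. Points are the 3 arrays of a group in the order of their replicate labels, bars are the mean and SD, and the dashed line is the reference level. Mt1 falls into 4 separate bands, Mt3 into 3 with both brain dead groups touching, and Mt2A has the widest spread.

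These levels belong to the values by which the members were chosen, so the differences between groups are given as a description, without a test. Before transplantation, Mt1 was 2.09-fold higher in brain dead donor kidneys than in normal kidneys (log2 1.07 ± 0.10, SE of the fit over 12 arrays) and Mt3 was 1.93-fold higher (log2 0.95 ± 0.07). At 1 h, Mt1 was 2.08-fold higher in grafts of brain dead donors than in grafts of living donors (log2 1.05 ± 0.10) and Mt3 was 1.83-fold higher (log2 0.87 ± 0.07). Replicates of the groups compared did not overlap for either gene, as was the case for 10.9% of all features in the higher direction at 0 h and for 12.1% at 1 h. Among 9653 named genes, the difference ranked 79th for Mt1 and 95th for Mt3 at 0 h, and 35th and 61st at 1 h. In whole kidneys, more RNA per cell and more cells of a type with that RNA cannot be told apart.

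Differences along transplantation were smaller than those between donors for both genes. Grafts of living donors at 1 h stood above normal kidneys by 0.32 ± 0.10 for Mt1 and by 0.31 ± 0.07 for Mt3 (1.25-fold and 1.24-fold), with no overlap of replicates in either gene (8.83% of all features, in the higher direction). Grafts of brain dead donors stood above brain dead donor kidneys by 0.31 ± 0.10 for Mt1 (1.24-fold), without overlap, and by 0.23 ± 0.07 for Mt3 (1.17-fold), with the overlap named above (9.04% of all features without overlap, in the higher direction). After quantile normalization between arrays this last difference was 0.16 ± 0.13 for Mt1 and -0.008 ± 0.10 for Mt3 (SE). Whether Mt3 differed here thus depends on the scaling. In the central 95% of named genes this comparison ran from -0.40 to 0.41, which takes in both genes, whereas the range at 0 h between donors ran from -0.47 to 0.59 and that at 1 h between grafts from -0.61 to 0.47, both short of Mt1 and Mt3.

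**Figure D3:**
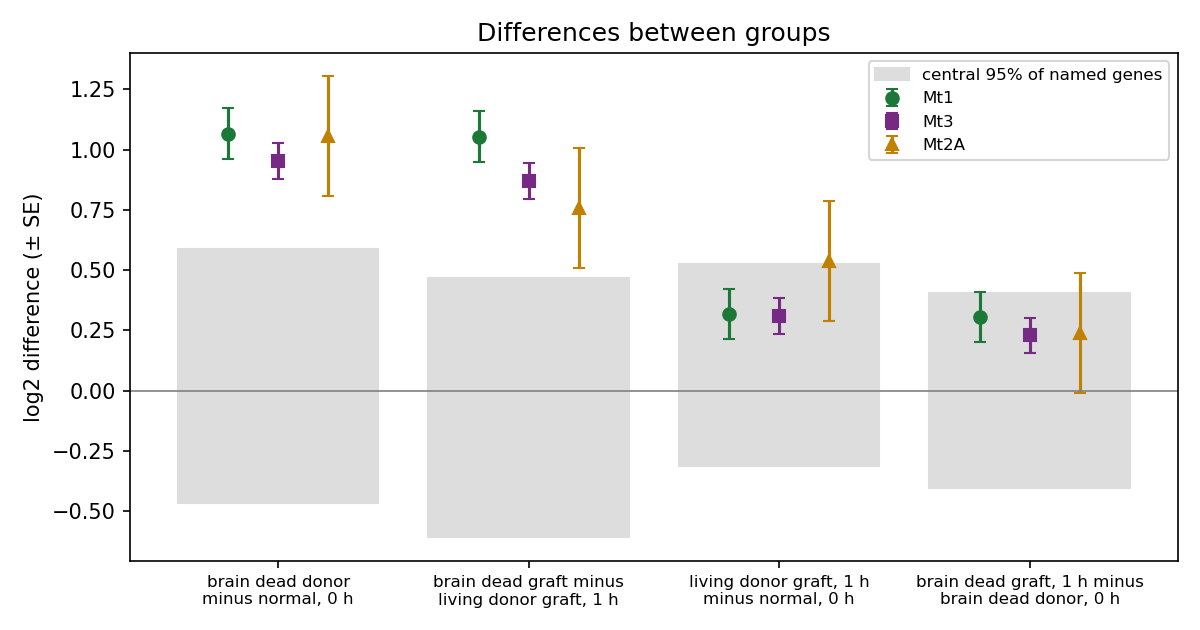
Log2 difference between groups, with the SE of the fit, for Mt1, Mt3 and Mt2A in 4 comparisons. Grey boxes hold the central 95% of named genes. Both comparisons of brain dead with other donors place the 3 genes above the box, and both comparisons along transplantation place Mt1 and Mt3 inside it.

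The estimate of how far the separate differences of brain death and of transplantation added up moved with the scaling. For Mt1, grafts of brain dead donors stood 1.37 above normal kidneys, without overlap of replicates (16.2% of all features in the higher direction), against a sum of 1.38 from the difference at 0 h between donors and the difference of living donor grafts from normal kidneys, so the observed value lay 0.01 below the sum (-0.01 ± 0.15, SE). For Mt3 the observed difference was 1.18, the sum 1.26 and their gap -0.08 ± 0.10. After quantile normalization between arrays, which was applied to this quantity after the data had been seen, the gap was -0.25 ± 0.18 for Mt1 and -0.32 ± 0.14 for Mt3. The difference at 0 h was 3.36 times the living donor graft difference for Mt1 and 3.07 times for Mt3, both as log2 units.

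Both genes differed in where they stood against the reference. Normal kidneys averaged 0.978 of the reference mixture for Mt3 but 0.666 for Mt1, although the reference was itself a mixture of normal kidneys. Only 1.51% of named genes had a mean as low as that of Mt1 in normal kidneys. Mt2A showed the same, at 0.736 of the mixture, with 3.57% of named genes as low. The cause was not tested. The gap between Mt3 and Mt1 on an array (Mt3 minus Mt1) was 0.36 ± 0.24 in grafts of brain dead donors, 0.44 ± 0.06 in brain dead donor kidneys, 0.55 ± 0.11 in grafts of living donors and 0.55 ± 0.18 in normal kidneys (SD, n = 3 each). These gaps compare ratios to the mixture and say nothing of which transcript was more abundant.

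Replicates of Mt3 were close in normal kidneys, with an SD of 0.025, below that of all but 7.25% of named genes (median 0.086). Mt1 was tightest in brain dead donor kidneys, where its SD of 0.037 was at or above that of 17.7% of named genes, and widest in normal kidneys (SD 0.184, at or above that of 84.8%). Replicate 1 of the normal kidneys set that spread, at -0.80 against -0.50 and -0.46. Without it the difference of Mt1 at 0 h was 0.96 in place of 1.07.

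Mt2A, the other ubiquitous form, was not among the members and was tested as any other gene. It stood at 1.18, 1.00 and 0.38 in grafts of brain dead donors, at 1.01, 0.61 and 0.22 in brain dead donor kidneys, at 0.29, 0.27 and -0.28 in grafts of living donors and at -0.55, -0.44 and -0.34 in normal kidneys. Its group means kept the order of Mt1 and Mt3 (0.85 ± 0.42, 0.61 ± 0.39, 0.09 ± 0.32 and -0.44 ± 0.11, SD, n = 3 each), but its replicates spread so widely that both brain dead groups overlapped, as did brain dead donor kidneys and grafts of living donors. In 3 of the 4 groups its SD was higher than that of at least 94.4% of named genes.

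At 0 h Mt2A rose 2.08-fold in brain dead donor kidneys over normal kidneys (log2 1.06 ± 0.25, SE, adjusted p = 0.0429 by limma with Benjamini-Hochberg adjustment over all 18478 features, of which 4.65% passed). That call held without brain dead replicate 3 (adjusted p = 0.0473 by limma) and was lost without brain dead replicate 1 or 2 (0.0884 and 0.137) and without normal replicate 1, 2 or 3 (0.132, 0.119 and 0.0927). With 1 array left out the difference lay between 0.86 and 1.25, and a fit of these 2 groups alone gave an adjusted p of 0.0665 by limma. Between grafts at 1 h it was 0.76 ± 0.25 higher after brain death, without overlap of replicates, and did not pass (adjusted p = 0.108 by limma). Its differences along transplantation, 0.54 ± 0.25 in living donor grafts over normal kidneys and 0.24 ± 0.25 in grafts over kidneys of brain dead donors, did not pass either (adjusted p = 0.479 and 0.717 by limma). In both brain dead groups the array highest for Mt3 was the lowest for Mt2A: replicate 27 of the grafts and replicate 3 of the donor kidneys. This was not so in grafts of living donors, where replicate 24 was highest for Mt3 and close to the highest for Mt2A. Mt1 and Mt2A encode closely alike transcripts, no probe sequence was used here, and whether their probes tell them apart was not tested.

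By Pearson's r over the 12 arrays with the mean of Mt1 and Mt3, the 5 most alike of 9647 named genes were Pak1ip1, a protein of ribosome assembly (0.965), Litaf, a protein of late endosomes (0.962), Igfbp1, which binds insulin-like growth factors in blood (0.957), Tsr1, a factor in the maturation of the small ribosomal subunit (0.957), and Rai14, an actin-associated protein (0.956). Mt1 and Mt3 themselves had an r of 0.968, and with group means taken out r was -0.036 over the same 12 arrays (8 degrees of freedom). Mt2A had 0.866 with their mean and ranked 204th, and 102 genes reached 0.9 or more. The arrays fall into 4 groups and share their reference, so they are not 12 independent points.

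These 5 genes differed greatly in size while sharing the order of the groups. Igfbp1 averaged 2.72 ± 0.47 in grafts of brain dead donors, 2.12 ± 0.26 in brain dead donor kidneys, 1.05 ± 0.37 in grafts of living donors and -0.11 ± 0.14 in normal kidneys (SD, n = 3 each), and so spanned more than Mt1. Litaf averaged 0.37 ± 0.13, 0.30 ± 0.06, -0.28 ± 0.11 and -0.58 ± 0.09, with normal kidneys below the mixture as for Mt1. Pak1ip1 averaged 0.28 ± 0.06, 0.20 ± 0.05, -0.001 ± 0.05 and -0.07 ± 0.02, a narrow span. With 1 probe per gene, Rai14 differed by 0.10 in place of 0.30 at 1 h between grafts, and by 0.29 in place of 0.26 at 0 h between donors. Its likeness thus rests on an average over probes. As the 5 genes were picked by likeness, their differences carry no test.

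**Figure D4:**
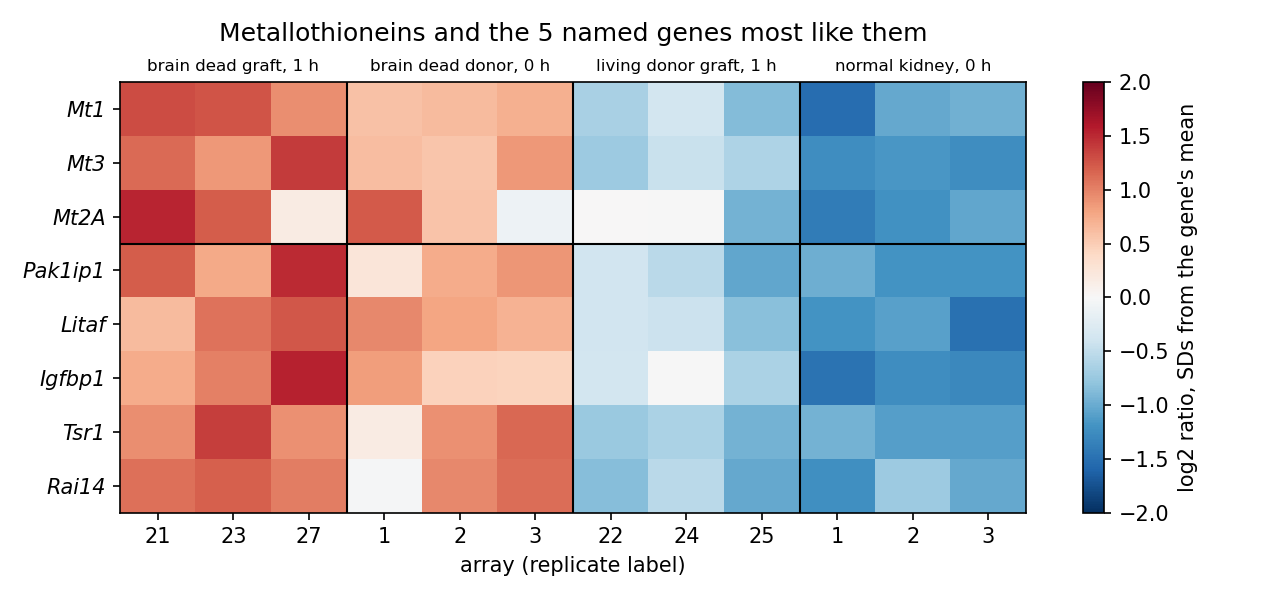
Log2 ratio of Mt1, Mt3, Mt2A and the 5 named genes most like the mean of Mt1 and Mt3, on each of 12 arrays, in SDs from the gene's own mean over all arrays. Columns are arrays by replicate label, in 4 groups. In Mt1, Mt3 and each of the 5 genes, the 6 brain dead arrays on the left lie above the other arrays on the right. Rai14 (-0.02) and Tsr1 (0.17) lie near their own means on replicate 1 of the donor kidneys. Mt2A does so on replicate 27 of the grafts (0.17) and replicate 3 of the donor kidneys (-0.1), and there overlaps grafts of living donors.

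Mtf1, which encodes MTF-1, was measured by 2 probes that disagreed. The first gave 1.74, 1.75 and 1.52 in grafts of brain dead donors, 0.68, 1.45 and 1.58 in brain dead donor kidneys, 0.48, 0.42 and 0.60 in grafts of living donors and 0.17, 0.005 and 0.08 in normal kidneys. On that probe both brain dead groups lay above both other groups. The second gave group means of -0.16 ± 0.33, -0.09 ± 0.11, -0.17 ± 0.12 and -0.02 ± 0.04 in the same order (SD, n = 3 each), with no such step. Differences were 1.16 and -0.07 on the first and second probe at 0 h between donors, and 1.18 and 0.01 at 1 h between grafts.

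Averaged over both probes, Mtf1 was higher in brain dead donor kidneys than in normal kidneys by 0.54 ± 0.12 (SE, adjusted p = 0.0383 by limma) and in grafts of brain dead than of living donors by 0.59 ± 0.12 (adjusted p = 0.0217 by limma). The call at 0 h held without brain dead replicate 1 and was lost with any other of the 6 arrays left out: adjusted p by limma was 0.149 and 0.118 without brain dead replicates 2 and 3, and 0.104, 0.117 and 0.0953 without normal replicates 1, 2 and 3. At 1 h it held without graft replicate 21 and was lost without graft replicate 23 or 27 (0.062 and 0.0658) and without replicate 22, 24 or 25 from living donors (0.0656, 0.061 and 0.0697). Adjusted p by limma was 0.129 at 0 h in a fit of those 2 groups alone, and 0.132 at 1 h after quantile normalization, where the difference was 0.46. The log2 difference was between 0.43 and 0.71 at 0 h and between 0.54 and 0.67 at 1 h with 1 array left out.

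MTF-1 is also known to act on Slc30a1, a zinc exporter of the cell membrane. Slc30a1, singled out after its values were seen, was lower than the mixture in every group and differed little: it stood at -0.25, -0.03 and -0.44 in grafts of brain dead donors, -0.16, -0.19 and -0.34 in brain dead donor kidneys, -0.39, -0.44 and -0.20 in grafts of living donors and -0.26, -0.32 and -0.39 in normal kidneys. Its difference was 0.09 ± 0.11 at 0 h between donors (adjusted p = 0.781 by limma) and 0.10 ± 0.11 at 1 h between grafts (adjusted p = 0.628 by limma), with overlapping replicates. Of 15 measured zinc transporters, none passed at 0 h between donors, where 4.65% of all features did (median of the list 0.03). At 1 h between grafts 6.76% of all features passed, and 1 of the 15 did (median 0.04). It was Slc30a2, which moves zinc into vesicles, at 1.18, 0.89 and 1.25 in grafts of brain dead donors against 0.41, 0.42 and 0.49 in grafts of living donors (0.66 ± 0.16, adjusted p = 0.0342 by limma, up to 0.101 with 1 array left out, which ended the call for 5 of 6 arrays, and 0.262 after quantile normalization, where the difference was 0.45). At 0 h between donors Slc30a2 was higher by 0.53 ± 0.16, without overlap of replicates (10.9% of all features, in the higher direction), and did not pass (adjusted p = 0.0914 by limma). Its donor difference changed by 0.13 ± 0.22 from 0 h to 1 h (adjusted p = 0.973 by limma). No zinc transporter passed in either comparison along transplantation. Of all features, 0.731% passed in living donor grafts over normal kidneys and 0.0541% along transplantation after brain death. With 15 genes, none of these counts can be told from the share of all features.

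The lists of other genes, of metal handling as well as of shared inducers, were chosen with earlier results of these data known. A share above that of all features may therefore come from the choice. Together the lists held 114 measured genes. Of these, 15 rose and 2 fell at 0 h between donors (14.9%, against 4.65% of all features, 2.27% higher and 2.39% lower), 10 were higher and 3 lower at 1 h between grafts (11.4%, against 6.76%, 2.02% higher and 4.74% lower), 11 rose and 0 fell in living donor grafts over normal kidneys (9.65%, against 0.731%, 0.541% higher and 0.189% lower), and 1 passed along transplantation after brain death (0.877%, against 0.0541%, 0.0379% higher and 0.0162% lower). Of 9 measured genes in the list of MTF-1 and its reported targets, 3 rose at 0 h between donors: Mtf1 itself, Csrp1, a protein of the actin cytoskeleton (0.67 ± 0.14), and Ndrg1, a stress-response gene (0.865 ± 0.21). At 1 h between grafts Mtf1 was the 1 that passed, and Csrp1 rose in living donor grafts over normal kidneys (0.86 ± 0.14). The median of the list was 0.09 at 0 h and 0.06 at 1 h, against -0.001 and 0.01 over all features.

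Among 17 Nrf2 antioxidant genes, 3 rose at 0 h between donors and 6 were higher at 1 h between grafts, with medians of 0.068 and 0.105. Hmox1, which degrades heme, rose by 2.20 ± 0.28 and 2.86 ± 0.28, more than either member, and Txnrd1, a thioredoxin reductase, by 0.47 ± 0.05 and 0.39 ± 0.05, less than either. With 1 probe per gene Hmox1 stood at 3.08 and 3.68. Nqo1, a quinone reductase, was higher by 0.75 ± 0.12 at 1 h. None of the 17 passed along transplantation with living donors. Hmox1 was also among the 14 features with the full 4-group separation of Mt1.

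Glucocorticoid-responsive genes passed most often in living donor grafts over normal kidneys. Of 16 measured, 3 rose at 0 h between donors (Nfkbia, Cebpd and Fkbp5, median of the list 0.09), 0 passed at 1 h between grafts (median -0.08), 6 rose in living donor grafts over normal kidneys (median 0.90) and 1, Ddit4, rose along transplantation after brain death (median 0.48). In the first of these comparisons Fkbp5, a co-chaperone of the glucocorticoid receptor, rose by 1.18 ± 0.25. In the second, Fkbp5 and Cebpd stood at 0.90 and 0.99 and did not pass (adjusted p = 0.0595 and 0.107 by limma), and Nfkbia stood at -0.11. In the third, Nfkbia, which encodes an inhibitor of NF-kappa B, rose by 2.42 ± 0.21 and the stress gene Ddit4 by 1.19 ± 0.11, where Mt1 and Mt3 stood at 0.32 and 0.31. The part of glucocorticoids in the metallothionein differences was not tested. Heat shock genes, 14 measured, had 1 higher and 1 lower at 0 h between donors (median 0.02), 1 lower at 1 h between grafts (median -0.15), and 2 higher in living donor grafts over normal kidneys, Hspa1a (3.25 ± 0.26) and Dnajb1 (0.51 ± 0.09). No heat shock gene passed along transplantation after brain death.

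The remaining lists were those of the acute phase, of hypoxia, and of copper and iron. Of all features, 4.65% passed at 0 h between donors, 6.76% at 1 h between grafts and 0.731% in living donor grafts over normal kidneys. Of 14 genes of interleukin 6, STAT3 and the acute phase, 2 rose at 0 h between donors (Bcl3, 1.47 ± 0.25, and the receptor Il4r, 1.05 ± 0.19, median 0.67) and 1, Il4r, was higher at 1 h between grafts (1.03 ± 0.19, median 0.28). With 1 probe per gene Bcl3 stood at 2.41. The list ran from 0.007 to 2.23 at 0 h and from 0.066 to 2.02 at 1 h. Il6 was highest in both and did not pass (adjusted p = 0.0611 and 0.069 by limma). Of 17 hypoxia genes, 3 rose and 1 fell at 0 h between donors (median 0.20), among them Bhlhe40 (1.36 ± 0.15), while 1 fell at 1 h between grafts (Mxi1, -0.90 ± 0.18, median 0.09) and 1 rose in living donor grafts over normal kidneys (the peptide Adm, 0.84 ± 0.14). Of 18 copper and iron genes, Slc31a2, a copper transporter, rose at 0 h (0.32 ± 0.06) and in living donor grafts over normal kidneys (0.41 ± 0.06), while Steap4, a metalloreductase, was higher (0.32 ± 0.06 over 2 probes, which gave 0.56 and 0.07 and so disagreed) and Cox17, a copper chaperone of mitochondria, lower (-0.28 ± 0.06) at 1 h between grafts. Of the list genes named by rule at 0 h between donors, 6 of 17 passed whichever array was left out (Adm, Bhlhe40, Cebpd, Hmox1, Nfkbia and Txnrd1). The highest adjusted p among the others was 0.169 by limma, for Ndrg1 without brain dead replicate 2. Among those 6, Adm and Cebpd lost the call in a fit of the 2 groups alone (adjusted p = 0.0517 and 0.0524 by limma). With a replicate block in that fit, all 17 lost it. At 1 h between grafts 7 of 11 passed whichever array was left out (Hmox1, Hspa4, Il4r, Nqo1, Sqstm1, Steap4 and Txnrd1). Quantile normalization ended the calls of Il4r, Nqo1 and Sqstm1 (adjusted p = 0.0512, 0.0552 and 0.169 by limma), and taking 1 probe per gene ended that of Steap4 (0.508). In living donor grafts over normal kidneys 3 of 9 passed whichever array was left out (Ddit4, Hspa1a and Nfkbia), and the highest adjusted p among the others was 0.159 by limma, for Dnajb1 without replicate 22. Along transplantation after brain death Ddit4 lost its call (adjusted p = 0.145 by limma without brain dead replicate 2, and 0.218 after quantile normalization).

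**Figure D5:**
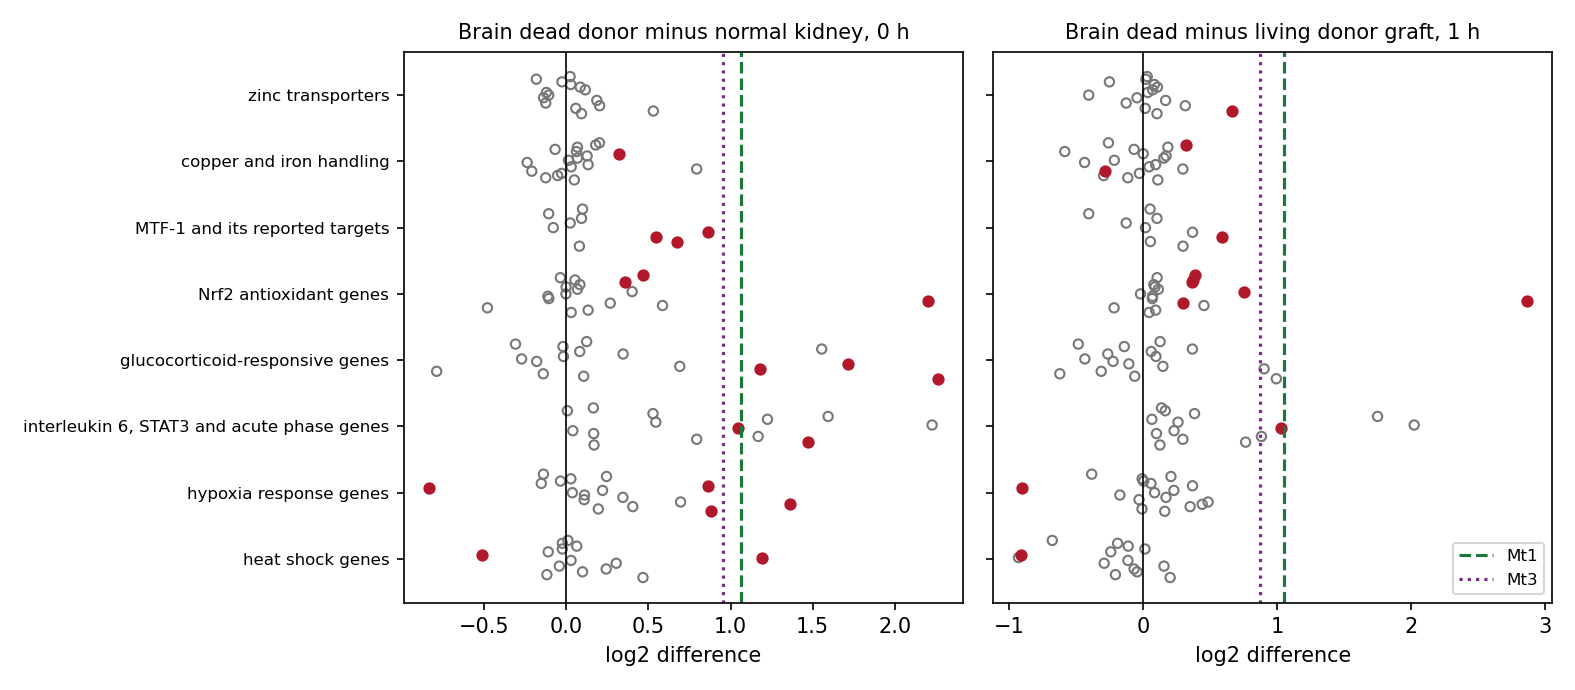
Log2 difference of each measured gene in 8 lists, at 0 h (brain dead donor kidneys minus normal kidneys) and at 1 h (grafts of brain dead minus grafts of living donors). Filled points passed at an adjusted p under 0.05, open points did not, and the dashed and dotted lines are Mt1 and Mt3. Most list genes lie near 0, Hmox1 lies to the right of both lines on both sides, and no zinc transporter reaches either line.

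The metallothionein genes lie side by side on chromosome 19, and 1 of their measured neighbours passed a test. In the RefSeq gene table, 10 protein-coding genes were taken as neighbours, 5 on each side of the 4 metallothioneins, and 5 of them were measured. Herpud1, a gene of the unfolded protein response, rose at 0 h between donors (0.65 ± 0.08, adjusted p = 0.00377 by limma) and in living donor grafts over normal kidneys (0.79 ± 0.08, adjusted p = 0.00186), but stood at 0.03 ± 0.08 between grafts at 1 h (adjusted p = 0.863). Bbs2, the next gene on the other side and a component of cilia, stood at -0.76 ± 0.24 at 0 h between donors and at -0.92 ± 0.24 at 1 h between grafts (adjusted p = 0.117 and 0.0525 by limma), the opposite sign to Mt1 and Mt3. Slc12a3, Nudt21 and Gnao1 did not pass in any of the 4 comparisons and lay between -0.17 and 0.30.

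Shares of genes that rose were also counted by the number of metal response element cores in the promoter, with no test. With Mt1 and Mt3 left out, 2.65% of 4898 named genes without a core rose at 0 h between donors, against 2.91% of 1960 with 1 core, 3.05% of 591 with 2, 2.33% of 129 with 3, 1 of 25 with 4 (Mt2A) and 0 of 7 with 5 or more. At 1 h between grafts the shares were 2.39%, 2.70%, 2.88%, 3.10%, 0 of 25 and 0 of 7. Over all 7610 genes they were 2.75% at 0 h and 2.51% at 1 h.

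No marker of the proximal tubule passed a test, and 1 of neutrophils did. Of all features, 4.65% passed at 0 h between donors and 6.76% at 1 h between grafts. The shares were 0.731% in living donor grafts over normal kidneys and 0.0541% along transplantation after brain death. Lists of 3 to 9 markers are too short to tell such counts from these shares. As the table holds ratios to kidney RNA, it cannot show which markers are absent. The mean log2 ratio of 8 proximal tubule markers ran from -0.32 to -0.16 over grafts of brain dead donors, -0.08 to 0.23 over brain dead donor kidneys, -0.24 to -0.04 over grafts of living donors and -0.08 to 0.14 over normal kidneys, and none of the 8 passed in any comparison. The mean of 3 neutrophil markers ran from 0.38 to 1.26, 1.195 to 2.17, -0.305 to -0.01 and -0.17 to 0.24 in the same order. S100a9 was the 1 of 3 that rose at 0 h (3.47 ± 0.50), and none passed at 1 h between grafts. No marker of the 5 for loop, distal tubule and collecting duct, 7 for monocytes and macrophages, 3 for red blood cells or 6 for neurons and astrocytes passed in any comparison. Podxl of 3 podocyte markers was lower at 1 h between grafts, Pecam1 of 5 endothelial markers rose at 0 h, and of 9 lymphocyte markers Gzma rose at 0 h and Cd3d was higher at 1 h between grafts. Those 4 calls were each lost with 4 or 5 of 6 arrays left out (adjusted p by limma up to 0.114 for Podxl, 0.0933 for Pecam1, 0.069 for Gzma and 0.106 for Cd3d). The part of these cells in the metallothionein differences was not tested.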

How the data were processed

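RNA of each kidney (Cy3) was hybridised with pooled normal kidney RNA (Cy5) on Agilent rat arrays. Titles gave the groups, because 1 description is repeated on all 12 arrays and contradicts most titles. Per the design text, the authors extracted spots with Agilent Feature Extraction and normalized each array in GeneSpring 7.0. Which program wrote them was not stated. The values deposited by the authors are taken here for log10 ratios of Cy3 over Cy5, because array medians lie near 0 and values end at -2 and 2 (a ratio of 100), and were multiplied by 3.32 to give log2 ratios. Direction rests on the design text. No intensities were used, so dim or saturated spots could not be told, and the number of arrays limits the precision.

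Of 21575 probes, 12750 had 1 symbol, 5 several and 8820 none. Probes of 1 symbol were averaged, which left 9653 named genes and 8825 unnamed probes. Array medians lay between 0 and 0.0099 log2 units, pairs of arrays correlated at 0.691 to 0.952, and 0.702% of values were exact zeros, none of them on the metallothionein probes. Group means were fitted over all 12 arrays with limma 3.58.1 in R 4.3.3 (8 residual and 1.89 prior degrees of freedom), adjusted by Benjamini-Hochberg over 18478 features, with a threshold of 0.05. The fit was tested on simulated data. SE values are those of this fit. Whether replicates are separate animals is not spelled out, so the p-values rest on the spread among these arrays, which may be partly technical. No slide or scan date was used, so no batch was tested.

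Members and lists were chosen with earlier results of these data known. Mt1 and Mt3 carry no test. Named otherwise were up to 4 members of a list that passed in a comparison, by smallest p, the 5 genes most like the members by Pearson's r, neighbours that passed, and Mt2A. Alternatives were quantile normalization, exact zeros as missing, 1 probe per gene, array weights, fits of 2 groups with and without a replicate block, and each array left out. Promoters came from RefSeq (GRCr8), matched by symbol.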

Additional observations from a re-analysis of the deposited data

Results flagged for a closer look

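The heat shock gene Hspa1a was picked out because its replicates lay without overlap on opposite sides in the same contrast at both times. At 0 h brain dead donor kidneys stood above normal kidneys by 1.19 ± 0.26 log2 units (SE), and at 1 h grafts of brain dead donors stood below grafts of living donors by a difference of -0.93 ± 0.26. The change of the donor difference between times was -2.12 ± 0.37 (interaction in limma, adjusted p = 0.473 over all 18478 features, of which 0 passed and 964 had an unadjusted p under 0.05). Hspa1a stood at 2.22, 2.62 and 2.38 in grafts of brain dead donors, 1.80, 0.97 and 1.09 in brain dead donor kidneys, 3.85, 3.31 and 2.85 in grafts of living donors and 0.07, 0.09 and 0.12 in normal kidneys. For Mt1 and Mt3 the same change was -0.01 ± 0.15 and -0.08 ± 0.10, and -0.25 ± 0.18 and -0.32 ± 0.14 after quantile normalization, where that of Hspa1a was -2.20 ± 0.29 (adjusted p = 0.0601 by limma).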

How the results depend on the processing

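With each array left out in turn, Mt1 stood between 0.96 and 1.13 at 0 h between donors, 0.98 and 1.13 at 1 h between grafts, 0.21 and 0.39 in living donor grafts over normal kidneys, and 0.26 and 0.38 in grafts over kidneys of brain dead donors. Mt3 stood between 0.90 and 0.98, 0.80 and 0.94, 0.27 and 0.34, and 0.16 and 0.30. Quantile normalization gave Mt1 1.21 at 0 h between donors and 0.16 in grafts over kidneys of brain dead donors. It gave Mt3 0.66 at 1 h between grafts and -0.008 ± 0.10 (SE) in grafts over kidneys of brain dead donors. That was the 1 change of sign, to a value near 0. Treating exact zeros as missing and taking 1 probe per gene could not change either gene, since each has 1 probe and neither has an exact zero. The cause of the shifts above was not tested.

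Counts of features that passed moved more. At 0 h between donors 860 passed, 2852 with array weights, 350 in a fit of 2 groups, and 165 to 1186 with an array left out (165 and 333 without brain dead replicates 2 and 3, and 304, 239 and 362 without normal replicates 1, 2 and 3). The same fit of 2 groups with a replicate block had 2 (2988 with an unadjusted p under 0.05, against 3394 without the block). Mt1 and Mt3 stayed at 1.07 and 0.95, which a balanced block cannot move. Deviations of same-numbered arrays correlated at 0.328, 0.1 and 0.0337, and only replicate 1 correlated best with its own number, so the numbers do not settle a pairing. At 1 h between grafts 1249 passed, 298 after quantile normalization, 427 in a fit of 2 groups, and 557 to 1037 with an array left out (806 and 692 without replicates 21 and 27, and 613, 723 and 557 without replicates 22, 24 and 25). In living donor grafts over normal kidneys 135 passed, 483 with array weights, and 33 to 210 with an array left out (33, 57 and 210 without replicates 22, 24 and 25, and 43, 55 and 36 without normal replicates 1, 2 and 3). Along transplantation after brain death 10 passed, 68 with array weights, 0 after quantile normalization and 0 in a fit of 2 groups by limma (1520 and 1933 features with an unadjusted p under 0.05, against 2423 with all arrays), and 0 to 14 with an array left out, the 0 without graft replicate 21 or brain dead replicate 2 or 3 (2127, 1932 and 2121 unadjusted). Fits of fewer arrays have fewer degrees of freedom, and other causes were not tested. Of the list genes named at 1 h between grafts, 7 lost the call after quantile normalization, as did 3 at 0 h between donors. Over 59 results on single named genes, 466 alternatives kept the direction and the side of the threshold and 210 kept the direction but lost the call. Direction could not change in fits of 2 groups, with or without the block, nor with 1 probe per gene where a gene had 1 probe. Of the 59 results, 56 had passed in the main fit, so these could only keep or lose the call.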
